A study of Mus musculus with 5 samples.

Results

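The data described here compare the microRNA (miRNA) content of healing wounds taken 7 days after wounding (D7) with that of unwounded skin (D0), both from the back skin of 2-year-old female mice. The members are all miRNA probes with a signal on at least 1 of the 2 arrays, which means that the mean of the 2 spots of a miRNA was more than 2 times as high as the 95th percentile of that array's empty spots. That limit was 210.9 intensity units on the D0 array and 198.1 on the D7 array. It kept 309 of the 1900 mouse miRNAs, of which 203 exceeded the limit on both arrays, 99 on the D7 array alone and 7 on the D0 array alone.

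The series holds 5 arrays, namely unwounded skin of aged mice, aged wounds at D3, D5 and D7, and unwounded skin of 8-week-old mice. The skin was in telogen, the resting phase of the hair cycle, and the D7 sample was a full-thickness wound made with a 3 mm punch, whereas the D0 sample was intact skin of the same age. Total RNA (0.5 ug) was labelled with Cy3 and hybridised to a single-colour mouse miRNA array. The strain and the number of animals behind each array are not given in the sources used here, and there was 1 array a condition, so no difference below has a replicate check, a test or a p-value. Error is given by the repeat spots, whose scatter corresponds to an SD of 0.27 for the mean log2 ratio of a member. It covers the array alone and not the variation between animals.

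miRNAs are short RNAs that guide a silencing complex to messenger RNAs, mainly through pairing of the seed, the stretch near the 5′ end of the miRNA. A wound at this stage holds new epidermis, granulation tissue rich in fibroblasts and vessels, and white blood cells, whereas intact back skin also holds a sheet of striated muscle under the dermis. Several miRNAs are made almost exclusively in 1 of these cell types and serve as markers of it.

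The mature sequences of the miRNAs that the comparison turned on are shown from RefSeq, matched by name on GRCm38.p6, with the seed (bases 2 to 8) in capitals. Of the 309 members, 253 matched by name. The first set holds miRNAs of higher level on D7, with miR-133b-3p, which was lower on D7, shown beside the other arm of its hairpin.
miR-133b-5p: gCUGGUCAaacggaaccaaguc
miR-133b-3p: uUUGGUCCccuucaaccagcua
miR-7239-3p: uGGCUCUGucaggcagguag
miR-223-3p: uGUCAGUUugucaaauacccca
miR-142a-5p: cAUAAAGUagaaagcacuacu
miR-142a-3p: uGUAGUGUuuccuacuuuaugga
miR-21a-5p: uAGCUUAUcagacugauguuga
miR-668-3p: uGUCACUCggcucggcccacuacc
miR-199a-5p: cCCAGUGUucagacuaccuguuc
miR-199a-3p: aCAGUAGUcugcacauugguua
The second set holds miRNAs of lower level on D7, with the miR-200 family to show which of its members share a seed.
miR-708-5p: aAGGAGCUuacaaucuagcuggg
miR-744-5p: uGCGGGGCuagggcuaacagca
miR-361-5p: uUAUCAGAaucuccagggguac
miR-31-5p: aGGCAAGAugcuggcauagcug
miR-200b-3p: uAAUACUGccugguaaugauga
miR-200c-3p: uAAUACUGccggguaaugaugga
miR-429-3p: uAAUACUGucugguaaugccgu
miR-200a-3p: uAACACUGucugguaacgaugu
miR-141-3p: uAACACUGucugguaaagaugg
The third set is the miR-29 family, whose 3 members share a seed and yet had unlike ratios.
miR-29a-3p: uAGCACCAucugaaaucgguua
miR-29b-3p: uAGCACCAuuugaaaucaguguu
miR-29c-3p: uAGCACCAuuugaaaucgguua

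Both arrays carried the miRNAs of skin. miR-205-5p, an epidermal miRNA, scanned at 19978 units on D0 and 13388 on D7. The liver and neuron markers miR-122-5p, miR-124-3p and miR-9-5p were at or under the empty-spot level (the 95th percentile) on D0, and on D7 they scanned at 96.3 to 106, against a level of 99.0. The mean of the empty spots was 96.9 on D0 and 85.8 on D7, while 589 and 1559 miRNA probes respectively were above this level, so that the D7 array had the wider range of faint signal.

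After quantile normalization the median D7/D0 ratio of the members was 1.02, with 157 ratios above 1 and 150 below. A ratio of at least 2 was found for 40 members (12.9%) and a ratio of 0.5 or less for 25 (8.09%), while 180 lay within 1.5-fold of equality. Among the 203 members over the limit on both arrays the median was 0.895, with 16 (7.88%) past 2-fold upwards and 21 (10.3%) past 2-fold downwards. In scanned intensity, the 99 members over the limit on D7 alone had to be higher on D7 or close to the limit. Likewise the 7 on D0 alone had to be lower, so their counts are a description of the rule. After normalization, 74 of the 99 had ratios above 1 and 25 below, and all 7 were below 1. Both repeat spots passed 2-fold on their own for 31 of the 40 higher and 17 of the 25 lower members. At the edge of the rule, miR-676-3p (213.5 on D0 and 188.6 on D7) and miR-30a-3p (199.9 and 201.2) lay just inside it, and miR-7034-5p (209.5 and 189.9) and miR-200b-5p (127.1 and 197.2) lay just outside.

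The direction of the whole set depended on the scaling between arrays. The members' median ratio ran from 0.805, when the arrays were scaled to their 75th percentile, to 1.62, when they were scaled to the 5S RNA probes. The higher members made up 61.5% of those past 2-fold under quantile normalization, against 25.4% with the 75th percentile, 90.2% without normalization, 90.5% with the spike controls, 93.3% with the median of all probes, 97.3% with the 5S probes and 68.0% in the deposited processed values. Ratios below therefore have to be read against the median of the members. Of the 40 higher and 25 lower members, 18 and 3 respectively passed 2-fold under every one of the 9 scalings.

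**Figure D1:**
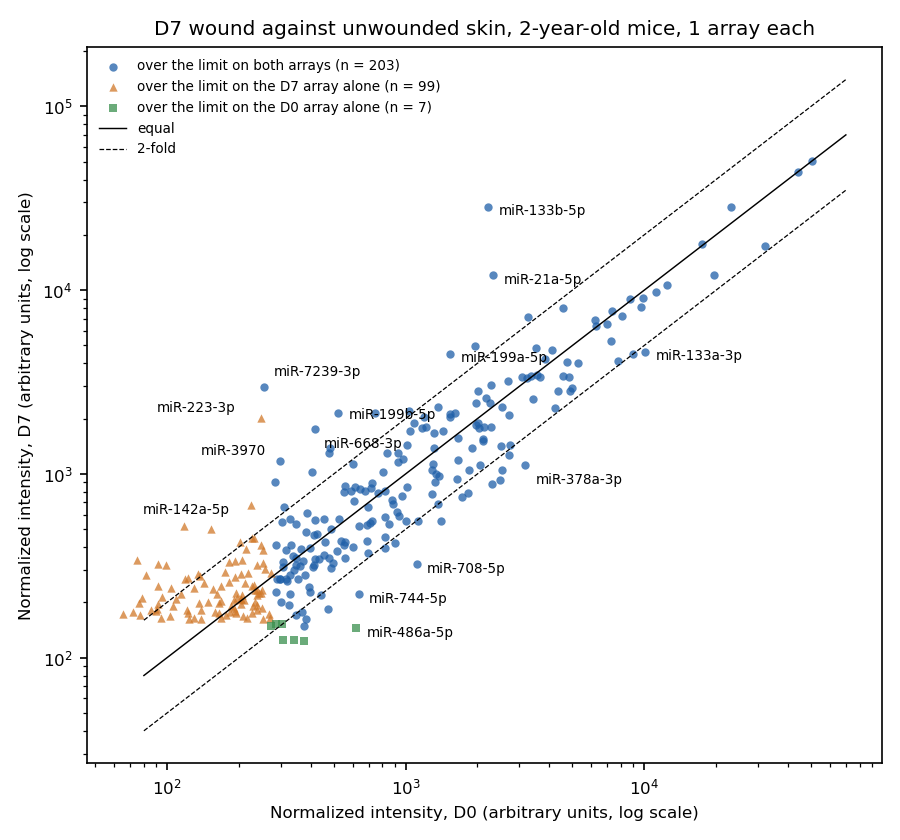
Normalized intensity of the 309 members in unwounded skin (D0, horizontal) and in the D7 wound (vertical), both on log axes in arbitrary units, with 1 point a miRNA. The solid line marks equal levels and the dashed lines 2-fold differences; miR-133b-5p and miR-21a-5p stand far above the lines among bright miRNAs, and miR-708-5p and miR-486a-5p below them.

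Several miRNAs of white blood cells were far more abundant in the wound. miR-223-3p, a miRNA of neutrophils and monocytes encoded at chrX:96242884-96242905, scanned at 197.5, 2804, 1338 and 2155 on D0, D3, D5 and D7. Its D0 level was below the limit, and the normalized D7/D0 ratio was 8.14, with 8.25 and 8.03 in the repeat spots. On the 8-week-old unwounded array it scanned at 2387, so that aged D0 was the low one of the unwounded pair, and the part of the D0 array in this and the ratios below was not tested. The miR-142a hairpin, which is transcribed in blood cells, gave 2 mature miRNAs. miR-142a-5p went from 120.6 on D0 to 569.8, 274.6 and 614 on D3, D5 and D7, a D7/D0 ratio of 4.39. miR-142a-3p was not above the empty spots on D0 and scanned at 408 on D7, which made it at least 3.75-fold higher under quantile normalization, while the lowest ratio over the scalings was 2.65.

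Lymphocyte miRNAs of the same list differed less. miR-150-5p, abundant in mature lymphocytes, had a D7/D0 ratio of 1.08 (372.3 and 673.9 scanned), and miR-342-3p one of 1.18 (423.2 and 848.8 scanned). All 6 miRNAs of the leukocyte list had ratios above 1, of which the faint miR-223-5p alone passed below 1 under another scaling (0.610). The 3 that were at least 2-fold higher, beside 12.9% of all members, were over the limit on D7 alone. Of all 99 members over the limit on D7 alone, 24 were at least 2-fold higher. The 2 of the list over it on both arrays, miR-150-5p and miR-342-3p, had a median of 1.13. The median ratio of the list was 2.78 against 0.983 for all 1900 miRNAs, and it ran from 1.90 to 7.33 over the 9 scalings. The upper value came from the deposited processed values, in which miR-142a-3p and miR-223-5p were near the floor on D0, at 1 and 1.53. In bulk tissue, more cells of a type and more RNA per cell cannot be told apart.

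Of the miRNAs induced in inflammation, miR-155-5p, which is raised in activated macrophages and lymphocytes, was the only one of the 6 past 2-fold. For comparison, 12.9% of all members were at least 2-fold higher. Of the 6, 3 were over the limit on neither array and are not members. miR-155-5p itself was over the limit on D7 alone. It scanned at 122.7, 183.7, 177.3 and 321.2 on D0, D3, D5 and D7, and its D7/D0 ratio was 2.22. miR-146a-5p and miR-146b-5p, which act as brakes on inflammatory signalling, had ratios of 0.943 and 0.982. The median ratio of these 6 was 0.962 and was above 1 under 4 of the 9 scalings.

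miR-21a-5p, a miRNA raised in many forms of tissue injury and fibrosis, was among the brightest miRNAs of the wound. Its scanned intensity was 2057, 10300, 5253 and 12501 on D0, D3, D5 and D7. The D7/D0 ratio was 5.17, with 5.34 and 5.01 in the repeat spots and a range of 3.57 to 7.19 over the scalings. Unwounded skin of 8-week-old mice scanned at 8893 for miR-21a-5p, also above aged D0. The opposite arm, miR-21a-3p, was over the limit on neither array.

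miR-31-5p, a keratinocyte miRNA linked to proliferation of the wound epidermis, lay on the other side. It scanned at 2419, 444.1, 1087 and 1480 on D0, D3, D5 and D7, and the D7/D0 ratio was 0.468 (0.459 and 0.476 in the repeat spots). All 3 wound arrays were thus below aged D0 for miR-31-5p, whereas all 3 were above it for miR-21a-5p. Unwounded skin of the younger mice scanned at 374.7 for miR-31-5p, below aged D0 and below all 3 wound arrays. The paper likewise reports more miR-31 in unwounded aged skin than in young skin. The part of a high aged D0 array in the miR-31-5p ratio was not tested.

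**Figure D2:**
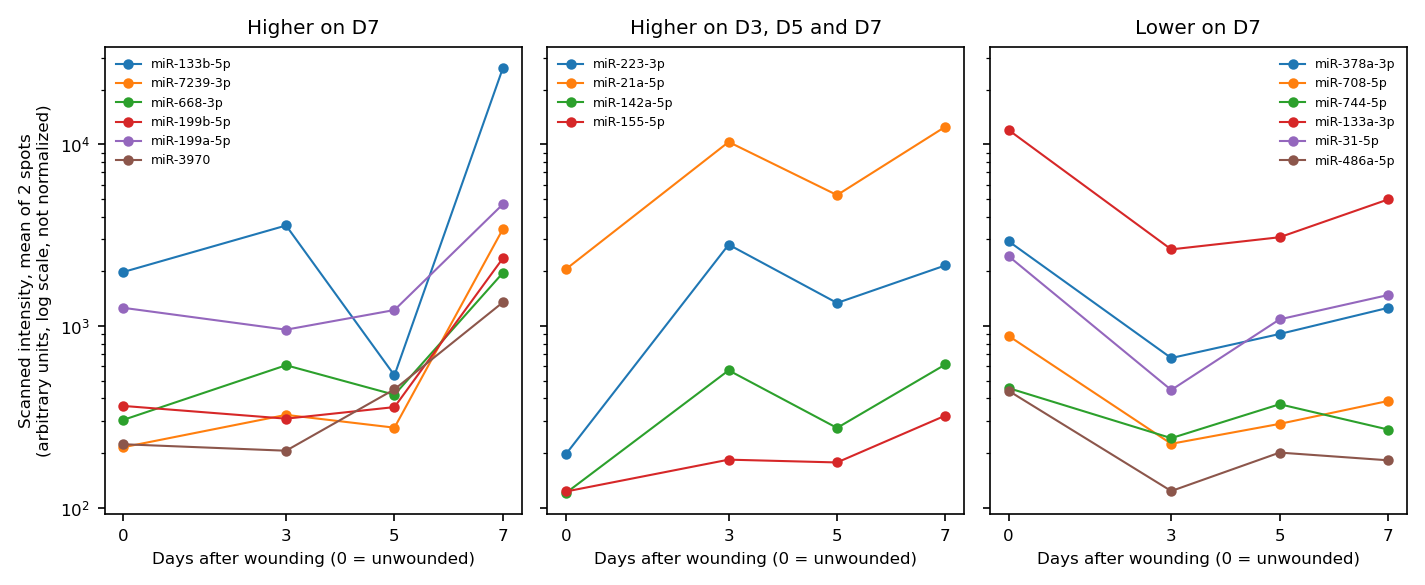
Scanned intensity (mean of 2 spots, log axis, not normalized) of selected miRNAs on the D0, D3, D5 and D7 arrays of aged skin, with days after wounding on the horizontal axis and 1 array a point. The left panel holds miRNAs whose D7 intensity is the highest of the 4 arrays, such as miR-199b-5p with 2356 on D7, the middle panel miRNAs above D0 on all 3 wound arrays, and the right panel miRNAs below D0 on all 3.

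The miR-199 and miR-214 miRNAs, which are known from mesenchymal cells such as fibroblasts, were all higher in the D7 wound than in unwounded skin, except that miR-214-3p crossed 1 under a single scaling. miR-199b-5p scanned at 362.9, 308.8, 357.6 and 2356 on D0, D3, D5 and D7, and had a D7/D0 ratio of 4.13 in which the repeat spots were nearly equal (4.12 and 4.14). miR-199a-5p scanned at 1258, 953.9, 1224 and 4675 and had a ratio of 2.94. For both, D3 and D5 stayed close to or below D0, and the D7 array stood apart among the aged arrays, while unwounded 8-week-old skin scanned at 2703 for miR-199b-5p and 3376 for miR-199a-5p. These 2 miRNAs have closely similar sequences and may share signal on the array.

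miR-199a-3p, the opposite arm, scanned at 2959 on D0 and 7316 on D7, a ratio of 2.17. miR-214-3p and miR-214-5p had smaller ratios of 1.38 and 1.45. The median of the 5 listed miRNAs was 2.17 and ran from 1.46 to 2.95 over the scalings, while miR-214-3p on its own fell below 1 (0.889) with the 75th percentile. Relative to the median of the members, the list median was 1.82 to 2.31 in all 9 scalings.

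The miR-29 family, whose known targets include collagen messenger RNAs, was split although its members share the seed printed above. miR-29b-3p scanned at 541.4 on D0 and 2392 on D7 with a ratio of 2.90, and its repeat spots gave 2.21 and 3.82. miR-29a-3p scanned at 4756 and 3689 with a ratio of 0.702, and miR-29c-3p at 247.6 and 455.7 with a ratio of 1.21. The span between miR-29b-3p and miR-29a-3p was 4.13-fold, the widest of the 13 seed groups with at least 3 members.

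The imprinted Dlk1-Dio3 region of chromosome 12 encodes one of the largest miRNA clusters of the mouse, with expression known from embryonic and regenerating tissue. It gave 20 members between 109585818 and 109747914 on GRCm38.p6, of which 18 had ratios above 1 and 8 were at least 2-fold higher, beside 12.9% of all members. Only 6 of the 20 were over the limit on both arrays, 1 of them at least 2-fold higher, and the other calls came from miRNAs that entered through D7 alone. Of all 99 members over the limit on D7 alone, 24 were at least 2-fold higher, a share above 12.9%. miR-668-3p, at chr12:109734774-109734797, had the highest ratio of the 20, with a D7/D0 ratio of 4.19. It scanned at 304.3, 607.9, 418.1 and 1959 on D0, D3, D5 and D7. miR-127-3p, miR-329-3p and miR-494-3p had smaller ratios of 1.55, 1.44 and 1.71. Unwounded 8-week-old skin scanned at 2589, 2272, 1118 and 3767 for miR-668-3p, miR-127-3p, miR-329-3p and miR-494-3p, each above the D7 wound. The part of a low aged D0 array in these ratios was not tested.

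The other 14 members of the cluster were over the limit on D7 alone. miR-434-3p scanned at 109.6 on D0 and 381.6 on D7 (ratio 3.23). miR-376b-3p was not above the empty spots on D0 and scanned at 390.4 on D7. Its ratio under quantile normalization was 3.53, equal to its bound. The repeat spots gave 2.65 and 4.71, and the lowest ratio over the scalings was 2.15. Unwounded 8-week-old skin scanned at 663.6 for miR-434-3p, above the D7 wound, and at 356.2 for miR-376b-3p, below it. The members of the cluster not above 1 were miR-3072-5p, with a ratio of 0.570, and the very bright miR-341-5p, with 52105 on D0 and 34795 on D7. Quantile normalization gave miR-341-5p the same value, 44085, on D0, D3, D5 and D7, so its ratio of 1 does not measure a change. Over the scalings its ratio ran from 0.393 to 1.09. Over all 104 miRNAs of the region on the array, faint ones included, 72 (69.2%) had ratios above 1, against 46.4% of the 1900 miRNAs, and the median was 1.12 against 0.983. The median of the 104 exceeded that of the 1900 under all 9 scalings, and was itself above 1 under 8 of them, the lowest value being 0.658. Most of these levels were faint, since 16 of the 25 listed miRNAs of the cluster were not above the empty spots on D0, and the part of the wider faint signal of the D7 array in them was not tested.

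**Figure D3:**
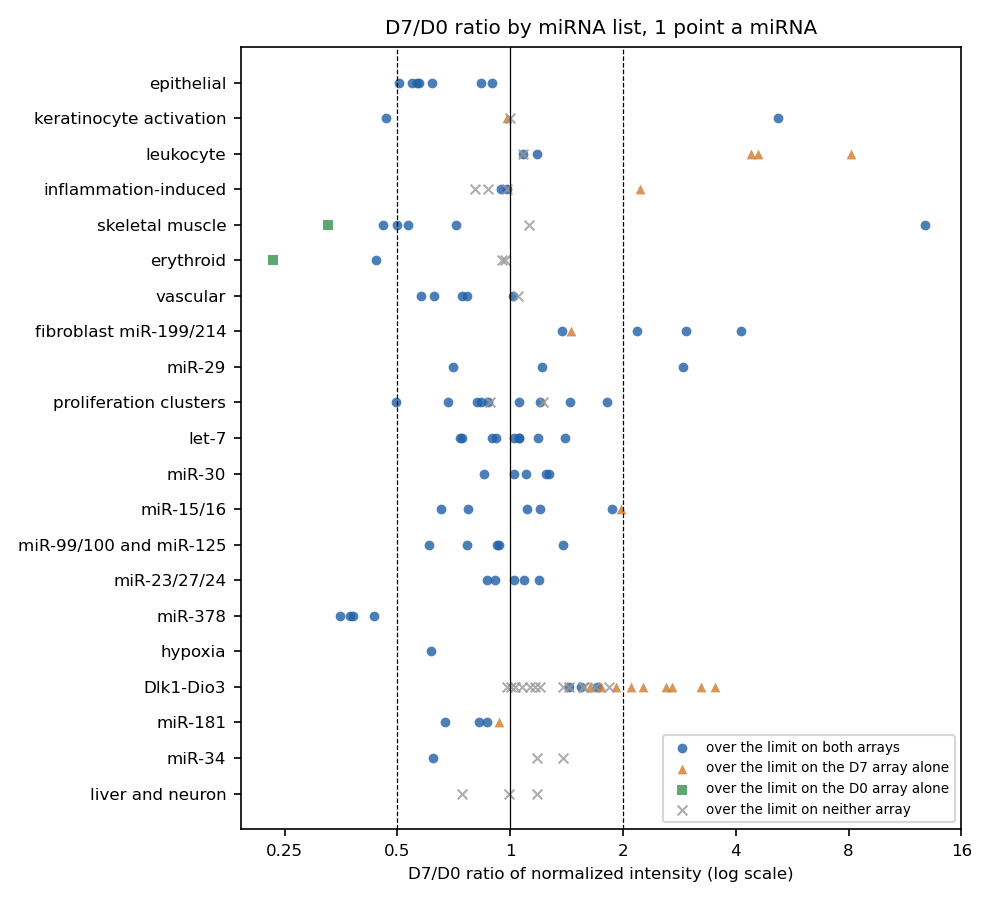
D7/D0 ratio of normalized intensity (log axis) of the 129 listed miRNAs, grouped by list, with 1 point a miRNA and the marker giving the arrays on which it was over the limit. The solid line marks a ratio of 1 and the dashed lines 2-fold differences. Under quantile normalization the epithelial and miR-378 lists lie wholly below 1, and the leukocyte and miR-199 lists wholly above it. Within these lists, miR-141-3p, miR-223-5p and miR-214-3p cross 1 under another scaling. The erythroid, miR-181 and hypoxia lists also lie wholly below 1 under quantile normalization, and each holds a miRNA that crosses 1 under another scaling.

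The epithelial miRNAs were all below their D0 level, though by less than 2-fold and with miR-141-3p above it under some scalings. miR-429-3p, miR-200b-3p, miR-200c-3p, miR-200a-3p and miR-141-3p, which keep epithelial cells in their epithelial state, had ratios of 0.506, 0.547, 0.564, 0.571 and 0.895. miR-203-3p, which promotes differentiation of keratinocytes, had a ratio of 0.836, and miR-205-5p one of 0.620. The summed scanned intensity of the 7 was 38489, 16244, 17340 and 27476 on D0, D3, D5 and D7, and the sum of the normalized intensities was 37284, 21290, 29054 and 24746. D0 was the highest on both scales, whereas the order of D5 and D7 differed between them.

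The list median was 0.571, and 0.426 to 0.859 over the scalings, while miR-141-3p reached 1.59. The repeat spots differed for several members, with 0.392 and 0.812 for miR-200c-3p and 0.582 and 1.20 for miR-203-3p. miR-200c-3p was also the one member of the list above D0 on D3, scanning at 2266, 4406, 1210 and 1678 on D0, D3, D5 and D7.

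The miR-378 miRNAs, best known from metabolic and muscle tissue, were uniformly lower in the wound. miR-378a-3p scanned at 2923, 665.8, 903.1 and 1258 on D0, D3, D5 and D7, and its D7/D0 ratio was 0.351 (0.329 and 0.376 in the repeat spots). miR-378b, miR-378c and miR-378d had ratios of 0.382, 0.373 and 0.433. All 4 were at least 2-fold lower, beside 8.09% of all members and 10.3% of the 203 over the limit on both arrays. Their sequences are nearly alike, however, and they may report the same RNA. The list median stayed between 0.280 and 0.565 over the scalings.

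The largest decrease among members over the limit on both arrays was that of miR-708-5p, at chr7:96249450-96249472. It scanned at 881, 224.6, 289.1 and 386.3 on D0, D3, D5 and D7 and had a D7/D0 ratio of 0.290 (0.271 and 0.310 in the repeat spots). miR-28a-5p, which shares its seed, scanned at 146.9 on D0 and 244.3 on D7, a ratio of 1.20 (0.910 to 1.84 over the scalings). miR-744-5p followed with 454.7 on D0 and 269.1 on D7, a ratio of 0.347, and miR-361-5p with 333.8 and 235.6, a ratio of 0.390. Both were scanned close to the limit on D7.

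**Figure D4:**
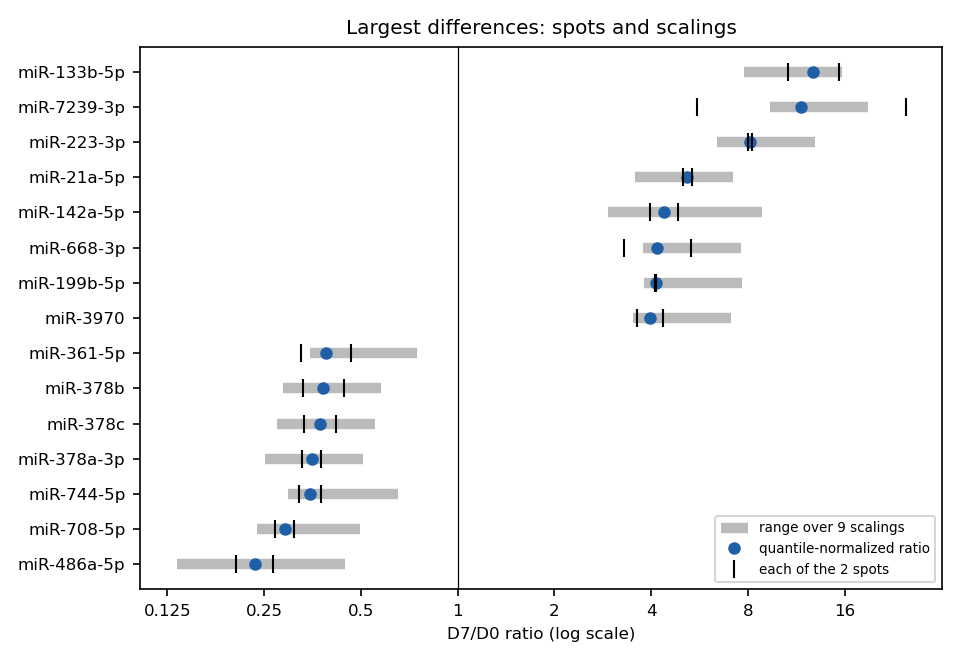
D7/D0 ratio (log axis) of the largest differences among members over the limit on both arrays and of the 3 largest on 1 array. Blue points give the quantile-normalized ratio, black ticks each of the 2 spots and grey bars the range over 9 scalings; every bar stays on 1 side of a ratio of 1, and the spots of miR-7239-3p lie furthest apart, at 5.56 and 24.8. The miRNAs over the limit on both arrays were chosen to move the same way in both spots and in the processed values.

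Of the 7 listed miRNAs of striated muscle, 5 were lower in the wound. miR-133a-3p scanned at 11977, 2639, 3078 and 4969 on D0, D3, D5 and D7 (D7/D0 ratio 0.458), and miR-133b-3p, which is nearly identical to it, at 10690, 2394, 2767 and 4780 (ratio 0.499). miR-1a-3p, made from the same transcripts as miR-133a, had a ratio of 0.534, and miR-206-3p, made with miR-133b, one of 0.716 that passed above 1 under some scalings (up to 1.16). miR-133a-5p was over the limit on D0 alone, with 280.1 on D0 and 159.4 on D7. miR-499-5p, over the limit on neither array, scanned at 80.1 and 107.2 (ratio 1.13).

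miR-133b-5p, at chr1:20682797-20682818, was far higher in the wound and had the highest ratio of all members under quantile normalization. This did not hold under every scaling, since miR-7239-3p had 17.3 against 14.3 in the deposited processed values. In scanned intensity, with neither background correction nor normalization, the ratios were 15.9 for miR-7239-3p and 13.2 for miR-133b-5p. miR-133b-5p scanned at 1983, 3572, 534.9 and 26218 on D0, D3, D5 and D7. Its D7/D0 ratio was 12.8, with 15.4 and 10.6 in the repeat spots and a range of 7.78 to 15.7 over the scalings. Its partner arm from the same hairpin, miR-133b-3p, was lower on D7, which put 25.7-fold between the arms. On the array of unwounded skin of 8-week-old mice miR-133b-5p scanned at 36276, above both aged arrays. Under all 9 scalings the list median of the 7 muscle miRNAs was below 1 (0.302 to 0.608).

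miR-7239-3p had the next highest ratio among members over the limit on both arrays. It scanned at 215.1, 324, 275.5 and 3412 on D0, D3, D5 and D7, a D7/D0 ratio of 11.7. miR-3970 scanned at 223.3, 205.7, 447.9 and 1349, a ratio of 3.97. For both, the D7 array was the highest of the 4 aged arrays, while the unwounded 8-week-old skin was higher still, at 16076 and 4241.

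Red-cell miRNAs were lower on D7. miR-451a, made in erythroid cells, scanned at 1510 on D0 and 896.4 on D7 with a ratio of 0.437. miR-486a-5p, also abundant in red cells and in muscle, was over the limit on D0 alone, with 439.3, 123.4, 200.9 and 182.2 on D0, D3, D5 and D7 and a D7/D0 ratio of 0.234, the lowest of all members. Both arms of miR-144, which is made with miR-451a, were not above the empty spots on either array.

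Among the vascular miRNAs none was past 2-fold. miR-126a-3p of endothelial cells had a ratio of 1.02, whereas miR-143-3p and miR-145a-5p of smooth muscle had ratios of 0.578 and 0.768. The list median was 0.757 and was above 1 under 3 of the 9 scalings. miR-210-3p, a miRNA induced in hypoxia, had a ratio of 0.614 (290.3 and 292.5 scanned), above 1 under 1 scaling.

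Most broadly expressed families held no miRNA past 2-fold. The 9 let-7 miRNAs, which restrain growth, had ratios from 0.733 (let-7c-5p) to 1.398 (let-7e-5p), and the 5 miR-30 miRNAs from 0.851 to 1.27. The miR-23, miR-27 and miR-24 miRNAs ranged from 0.869 to 1.20, and the miR-181 miRNAs from 0.670 to 0.936. The proliferation clusters around miR-17 were spread more widely, and their 9 miRNAs over the limit on both arrays ranged from 0.497 (miR-92a-3p) to 1.81 (miR-19b-3p), with 4 above 1. Members of such families can share signal, so that single ratios within them are uncertain.

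The miR-15/16 group is known for holding back cell division. miR-195a-5p scanned at 4258 on D0 and 3058 on D7 with a ratio of 0.653, whereas miR-15a-5p scanned at 434.2 and 1286 with a ratio of 1.88, and miR-322-5p reached 1.98. They share a seed, within which the ratios spanned 3.03-fold. At the other extreme, miR-429-3p, miR-200b-3p and miR-200c-3p with their common seed spanned only 1.11-fold.

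Both arms of a hairpin were members in 24 cases, and both lay on the same side of 1 in 10 of them. The remaining cases include miR-341, whose 5p ratio of exactly 1 came from the normalization and does not measure a change. The miR-142a arms had ratios of 4.39 and 4.58, the miR-199a arms 2.94 and 2.17, and the miR-378a arms 0.425 and 0.351. The arms of miR-6965 (0.414 for the 5p and 2.72 for the 3p arm) and of miR-486a (0.234 and 1.13) lay apart, as did those of miR-133b.

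**Figure D5:**
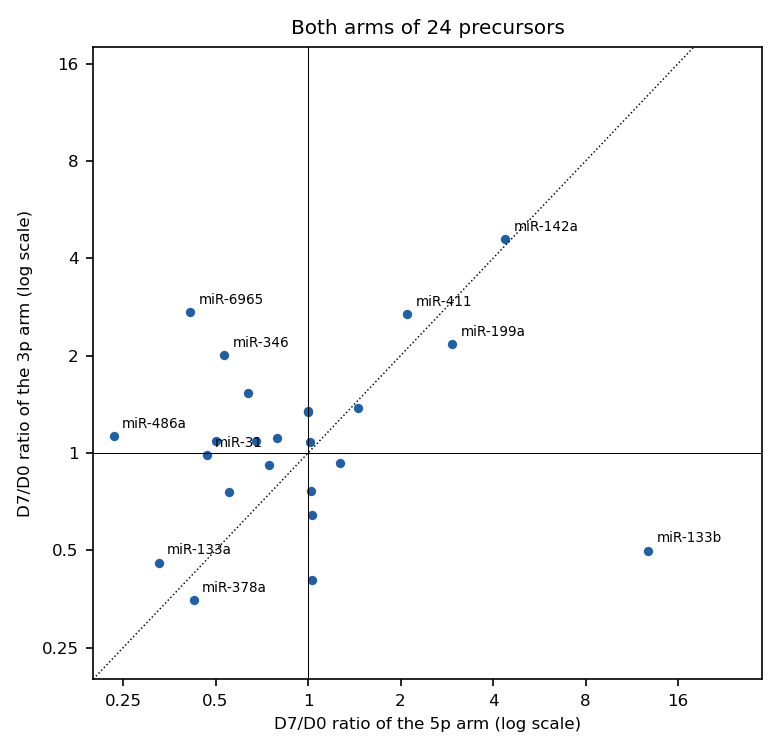
D7/D0 ratio of the 5p arm (horizontal) and 3p arm (vertical) of the 24 hairpins with both arms among the members, on log axes with 1 point a hairpin. The dotted line marks equal ratios of both arms; miR-142a and miR-378a lie near it, and miR-133b is furthest from it, at 12.8 and 0.499.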

How the data were processed

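Single-colour miRNA arrays of 5 samples were analysed, each with 1 array. The deposited scanner files give the intensity of each spot, whose background columns are empty, and the authors' processed intensity values in the series table, whose normalization is not given in the sources used here, were an alternative. For each miRNA 2 spots were read. The spot signal was corrected by normexp with an offset of 50, taken to log2, quantile normalized over the 5 arrays (limma 3.58.1, R 4.3.3) and averaged over spots. Tables and plots were made with Python 3.11.15, numpy 2.4.6, pandas 2.3.3 and matplotlib 3.10.9.

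A member was over 2 times the level (95th percentile) of its array's 4 empty spots on at least 1 of the arrays compared. Named miRNAs were the 6 largest rises and 6 largest falls over the limit on both arrays with both spots and the deposited processed values moving the same way, the 3 largest on 1 array, and the members of 21 lists of 129 miRNAs. Members and lists were chosen with earlier results of these data known. A miRNA at or under the percentile of the empty spots on D0 was given a bound in normalized values. The bound was set against the lowest D0 value of the miRNAs above that percentile, or against its own D0 value if higher. The steps were tested on simulated data, in which only miRNAs bright on D0 were changed. That test does not cover faint signal or members over the limit on D7 alone. D3 and D5 ratios share the D0 array with D7. Intensities are in arbitrary units, and precision is limited by having 1 array a condition. Normalization, background, spots, member rule and fold threshold were varied.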

Additional observations from a re-analysis of the deposited data

Results flagged for a closer look

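Repeat spots are the only error available here, and the differences between days named in this paragraph were not tested. They stood out because both spots moved one way on D7 and the opposite way on an earlier day, and the 3 contrasts share the D0 array. miR-133b-5p had a D5/D0 ratio of 0.363 (0.506 and 0.260 in the spots) and a D7/D0 ratio of 12.8. miR-199b-5p had a D3/D0 ratio of 0.702 (0.686 and 0.719) and a D7/D0 ratio of 4.13. miR-3970 had a D3/D0 ratio of 0.843 (0.754 and 0.943) and a D7/D0 ratio of 3.97.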

How the results depend on the processing

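The number of members at least 2-fold higher, 40, became 74 without normalization between arrays, 18 with scaling to the 75th percentile, 83 to the median, 76 to the spike controls, 108 to the 5S probes, 66 in the deposited processed values, 61 with the mean of the empty spots subtracted, 25 with an offset of 100, 16 among members over the limit on both arrays, and 72 and 14 at 1.5-fold and 3-fold. The number at least 2-fold lower, 25, became 8 without normalization, 53 with the 75th percentile, 6 with the median, 8 with the spike controls, 3 with the 5S probes, and 57 and 3 at 1.5-fold and 3-fold. The members' median of 1.02 became 1.37, 0.805, 1.43, 1.39 and 1.62 under no normalization, the 75th percentile, the median, the spike controls and the 5S probes. The cause was not tested. Of 106 named miRNAs, the 33 past 2-fold stayed on the same side of 1 under all 14 alternatives that gave each miRNA a ratio. For the 6 largest rises and 6 largest falls this was partly fixed in advance. Each spot alone and the deposited processed values are among the alternatives, and the same direction in them was part of the rule that named these miRNAs. No paired analysis was possible because D7 and D0 had 1 array each. Ratios of miRNAs near the empty spots are limited by signal over background, and those against such a D0 level are bounds.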

Other observations

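Several further members outside the lists were at least 2-fold higher on D7, and they are named here after their values were seen. miR-2137 scanned at 1771, 6014, 5766 and 5108 on D0, D3, D5 and D7, with a D7/D0 ratio of 2.55. miR-762 scanned at 803.4, 6876, 3308 and 2428, with a ratio of 2.14. miR-30c-1-3p scanned at 295.5, 8079, 992.2 and 1159, with a ratio of 2.51. All 3 had their highest scanned intensity on D3.

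Among lower members outside the lists, miR-183-5p scanned at 603.7 on D0 and 467.8 on D7 with a ratio of 0.482. miR-320-3p scanned at 1212 and 646.5 with a ratio of 0.393, and miR-652-3p at 671.1 and 504 with a ratio of 0.468. The cluster mates of miR-183-5p, miR-182-5p and miR-96-5p, had ratios above 1, of 1.25 and 1.31. For miR-182-5p the repeat spots gave 3.18 and 0.487, and the deposited processed values gave 0.378. By base composition, the members over the limit on both arrays had median ratios of 0.982 (n = 53) at a GC content at or below the 25th percentile, 0.790 (n = 99) between and 1.03 (n = 51) at or above the 75th percentile.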
